A study of Drosophila melanogaster with 48 samples.

Results

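The homeobox genes are the 79 genes that the deposited expression table assigns to the Homeobox family in its transcription factor column, out of 17558 genes in all. Membership was set by that column alone, although the family was chosen with earlier results of these data known. Each gene was then placed at the developmental stage where its wild-type mean was highest. Gene expression was measured by poly(A) RNA-Seq of whole animals at 8 stages, in 2 genotypes with 3 biological replicates per group, or 48 libraries. The wild-type line carries the label wOB and the mutants the label ptth120BC2, which were taken as the control line and the backcrossed null allele of *Ptth* that the study describes, a small deletion in the last exon. The labels put larvae early in the third instar (L3E) at 72 h after egg laying in wild type and 96 h in *Ptth* mutants, and those late in the third instar (L3L) at 96 h and 120 h, so that larvae were matched to their expected time before pupariation rather than by age. The other stages were white prepupae (WP), pupae at 1, 2, 3 and 4 days (P1 to P4) and adults 1 to 3 h after emerging (A0). Each replicate was a pool of about 15 animals, and sex was not given for any pool.

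Homeobox genes encode transcription factors that bind DNA through a homeodomain, a helix-turn-helix fold, and they are best known for setting the identity of body segments, limbs, eyes and nerve cells. The Hox genes lie in the Antennapedia and Bithorax complexes on chromosome 3R and act in domains along the body axis. During metamorphosis, imaginal discs (larval pouches of precursor cells) form the adult head, limbs, wings and genitalia, and many homeobox genes pattern those discs. PTTH is the brain hormone that signals to the prothoracic gland through the receptor Torso and so sets the timing of ecdysone release.

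Values are FPKM, fragments per kilobase of gene relative to sequencing depth, which the deposited table scales across libraries, and libraries held 16712549 to 29784621 reads on genes. *Ptth* itself read 0 to 3.42 FPKM in wild-type and 0.121 to 4.97 FPKM in mutant libraries, so its level did not check the genotype labels. Larval fat body markers separated the larvae sharply: at L3E all 6 rose in mutants (median log2 difference 7.71). At P1 5 of 6 muscle markers rose (median log2 change 1.32), and the 2 male-specific roX transcripts summed to 71.0 to 80.0 FPKM in wild type and 32.0 to 55.4 in mutants at P3. In larvae the roX sums went the other way. They were 27.2 to 33.0 in wild type and 34.4 to 46.2 in mutants at L3E, and 31.1 to 48.5 and 55.2 to 74.2 at L3L. Muscle markers summed lower in mutants at L3L (1773 to 2098 FPKM against 3679 to 3850 in wild type). At WP they read 27.1 to 30.0 against 73.1 to 82.3. Photoreceptor markers summed higher in mutants at P2 (113 to 117 against 61.1 to 77.6). Ecdysone response genes summed to 182 to 213 in mutants against 99.4 to 108 at P1, and to 316 to 344 against 367 to 393 at P2. The part of these shifts in the results below was not tested. In whole-animal pools, fewer cells of a type and less RNA per cell cannot be told apart.

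The homeobox genes were expressed at low levels. Of the 79 genes, 78 are protein coding and 1 (*CR14578*) is a pseudogene, and 30 lie on 3R, 15 on 2R, 11 on 3L, 11 on X, 10 on 2L and 2 on chromosome 4. A total of 41 genes reached 3 FPKM in at least 1 library and were tested between genotypes, beside 12282 genes in all, and 38 did not reach it. The highest value of any homeobox gene in any library was 20.9 FPKM, for *abd-A* in a wild-type prepupal pool. Untested members included regulators of eye, head and heart formation such as *ey*, *oc*, *ro*, *tin* and *eve*, and the highest value of an untested member in any library ran from 0.115 to 2.93 FPKM.

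Summed over the 79 genes, wild-type expression was 127 to 150 FPKM in the 3 L3E pools, 249 to 255 FPKM at P1 and 143 to 147 FPKM at P4. The *Ptth* mutants followed the same course, with 126 to 151 FPKM at L3E and 253 to 260 FPKM at P1. P1 was also the most frequent stage of highest expression for single genes. Of the 41 tested homeobox genes, 17 (41.5%) had their highest wild-type mean at P1, beside 12.6% of all tested genes. The remaining genes peaked at L3E (7), L3L (2), WP (4), P2 (3), P3 (4) and A0 (4), and no tested member peaked at P4. P3, where 24.1% of all tested genes peaked, held 9.76% of the homeobox genes. Scaling each library to its own reads on genes placed 25 of 41 members at P1, beside 29.1% of all genes, and quantile normalization 19 of 41 beside 18.6%. The 9 imaginal disc markers were also highest at P1, with summed levels of 86.4 to 89.4 FPKM in wild type beside 22.6 to 57.6 FPKM from L3E to WP. A high P1 share was not particular to homeobox genes. Of the Polycomb and trithorax groups, which keep Hox genes silent or active, 10 of 19 and 7 of 15 tested genes peaked at P1. Among ecdysone response genes it was 2 of 10, and among neuronal, photoreceptor and muscle markers 1 of 8, 0 of 8 and 0 of 6.

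**Figure D1:**
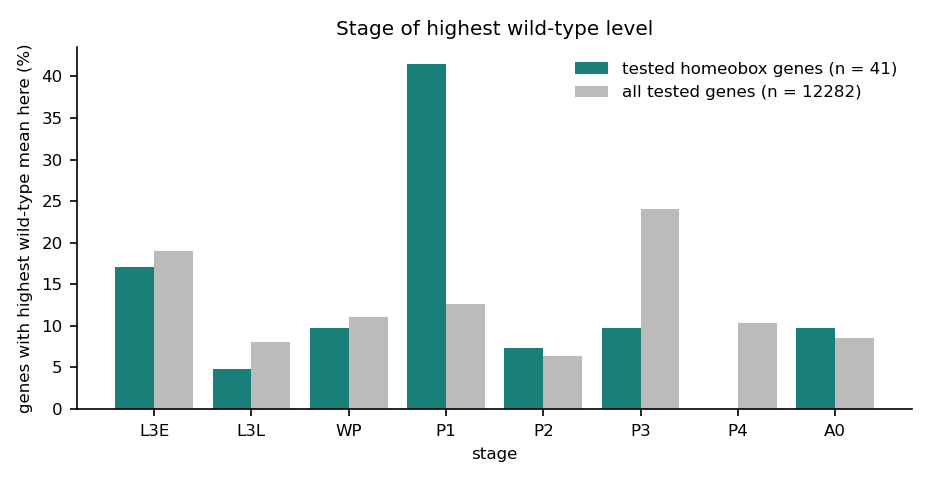
Share of genes (%) with their highest wild-type mean FPKM at each of 8 stages, for the 41 tested homeobox genes (green bars) and all 12282 tested genes (grey bars). P1 held 41.5% of the homeobox genes and 12.6% of all tested genes.

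Of the 20 genes on a list of appendage and disc patterning genes, all of them tested, 16 had their highest wild-type mean at P1, beside 12.6% of all tested genes, and 18 after quantile normalization. The list holds 11 tested homeobox genes, of which 10 peaked at P1 and 1 at P2, so this count shares genes with that of the members. It was chosen with earlier results of these data known. The members of the P1 group with the highest wild-type means were *ap*, *E5* and *Dll*. The LIM gene *ap*, the selector of the dorsal wing surface, stood at 13.8, 12.9 and 13.5 FPKM in the 3 wild-type P1 pools and at 3.02, 4.75 and 4.50 FPKM at L3E. The ems-related gene *E5* reached 13.5, 12.6 and 12.6 FPKM at P1 and 1.68, 1.97 and 1.64 FPKM at P4. *Dll*, which is required for limb outgrowth, was 0.932, 1.46 and 1.02 FPKM at L3E and 12.4, 11.8 and 11.9 FPKM at P1. In none of these 3 genes did the P1 pools overlap those of the stages named. Because the same wild-type pools placed each gene in its group, gaps between a peak and other stages, here and below, are partly fixed by that choice. *Dll* also had, after *CG11294* and ahead of *Six4*, 1 of the 3 widest wild-type ranges among the tested members, with log2 ratios of highest to lowest stage mean (of FPKM + 1) of 2.61, 2.82 and 2.49. The other P1 members with known roles in discs were *al* and *C15* (distal leg), *en* and *inv* (posterior compartments), *Lim1* (leg), *zfh2* (proximal appendages), *so* (eye) and *Dr* (dorsal muscle and nerve cord, and wing).

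The larval groups included genes known from the gut and from differentiated neurons. Highest at L3E were *Ptx1* (8.56, 11.3 and 8.48 FPKM in wild type), the motor neuron factor *exex* (6.52, 6.97 and 6.89) and *otp* (4.79, 5.44 and 5.43), a factor of the hindgut and brain. All 3 were lower at P1 in every library, where *exex* read 0.999, 1.46 and 1.01 FPKM. *cad*, which specifies posterior identity in the embryo and is expressed in the posterior gut, peaked at L3L with 13.1, 13.6 and 13.9 FPKM, while the P1 pools had 4.17, 3.67 and 4.49. The uncharacterised *CG34031* also peaked at L3L, with 3.46, 1.54 and 2.83 FPKM, and its 3 pools spread more than 2-fold. *CR14578*, the third gene of the L3L group, averaged 0.0491 FPKM.

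Prepupae held the peak of the 3 Bithorax genes and of *tup*, an Islet-type LIM gene of motor neurons and heart, which had 7.80, 9.73 and 9.17 FPKM at WP and 9.05, 8.96 and 8.39 at P1, so that these neighbouring stages overlapped. Among genes that peaked at P2, the glial factor *repo* read 7.5, 7.65 and 7.14 FPKM there, overlapping its P1 pools at 6.89, 7.15 and 7.75. *B-H1*, a Bar gene of eye and leg, had 3.2, 3.94 and 3.22 FPKM at P2 and 3.28, 3.5 and 3.40 at P1, with overlap as well. The LIM gene *CG32105*, named *Lmx1a* in the current annotation, stood at 2.52, 2.10 and 2.61 FPKM. Its P1 pools, at 1.77, 2.21 and 1.57, overlapped these too, so that none of the 3 genes separated P2 from P1 in every library.

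At P3 the highest members were *CG11294* (12.7, 9.98 and 12.1 FPKM), an uncharacterised paired-like gene, the eye gene *Optix* (9.63, 8.31 and 8.79) and the uncharacterised *CG34367* (3.12, 3.17 and 3.14). The P3 pools of *Optix*, which placed it in this group, lay above those of every other wild-type stage, the closest being 7.67 FPKM in a P4 pool. *Pph13*, a photoreceptor factor, was the 1 member with its highest mean at P4, at 2.23, 2.04 and 1.86 FPKM. In newly emerged adults *NK7.1* stood at 6.42, 8.65 and 7.36 FPKM, *Six4*, a factor of mesoderm and gonad, at 5.89, 6.37 and 4.86, and *vnd*, known from ventral neuroblasts, at 3.92, 4.35 and 3.74. *Six4* had been at 0.158 to 0.238 FPKM at L3L. For *NK7.1*, the gene body overlaps 3 other genes, 1 of them on the opposite strand, and the counting is not stated to use strand. The same holds for 21 of the 79 members, 17 of which overlap a gene on the opposite strand.

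**Figure D2:**
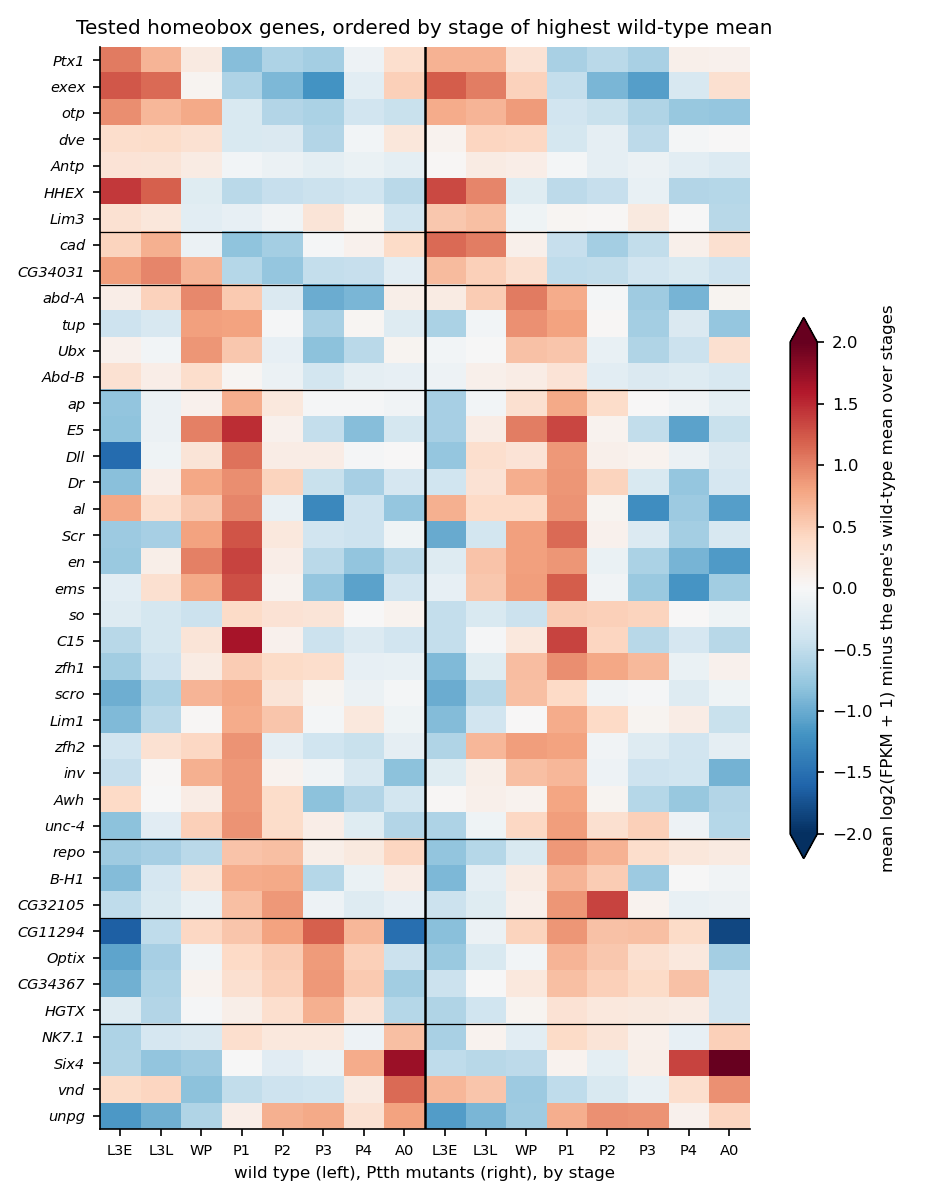
Mean log2(FPKM + 1) of each tested homeobox gene (rows) in each stage of wild type (left 8 columns) and Ptth mutants (right 8 columns), relative to that gene's mean over the wild-type stages. Rows are ordered by stage of highest wild-type mean and lines part the stage groups, of which P1 is the largest with 17 genes.

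The Hox genes differed widely in level and timing. On chromosome 3R (BDGP6), the Antennapedia complex genes *lab* (6661427 to 6678590), *pb* (6707800 to 6742063) and *Dfd* (6791836 to 6802428), which pattern the head and mouthparts, stayed under 3 FPKM in all 48 libraries and were not tested. *Scr* (6823120 to 6849981), which specifies the labial and first thoracic segments, was 1.70, 1.59 and 1.33 FPKM at L3E, 5.67, 6.79 and 6.61 at WP and 8.84, 9.30 and 8.90 at P1 in wild type. The pools of these 3 stages did not overlap. *Antp* (6896253 to 6999228), the thoracic Hox gene, varied least of the 5 tested Hox genes, with 3.12, 4.27 and 3.93 FPKM at L3E and 2.57, 2.42 and 2.33 at A0. Both genes overlap noncoding genes in the table.

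The Bithorax complex genes, which specify the posterior thorax and abdomen, had their highest wild-type means in prepupae. *Ubx* (16656623 to 16734426) was 7.54, 8.82 and 8.0 FPKM at WP and 1.59, 1.61 and 2.22 at P3. The lack of overlap is partly fixed, since the WP pools placed it there. *abd-A* (16807214 to 16830049), the most highly expressed homeobox gene, was 13.1, 20.9 and 19.0 FPKM at WP, 3.36, 3.64 and 4.29 at P3 and again 11.5, 8.35 and 7.98 at A0. *Abd-B* (16927210 to 16972236) had 2.47, 3.55 and 3.54 FPKM at WP and 1.52, 1.46 and 1.61 at P3. Its WP pools overlapped those at L3E (2.63, 3.89 and 2.64 FPKM), its WP mean of 3.19 FPKM stood beside 3.05 at L3E, and its highest mean was at L3E after quantile normalization and at P1 in mutants.

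**Figure D3:**
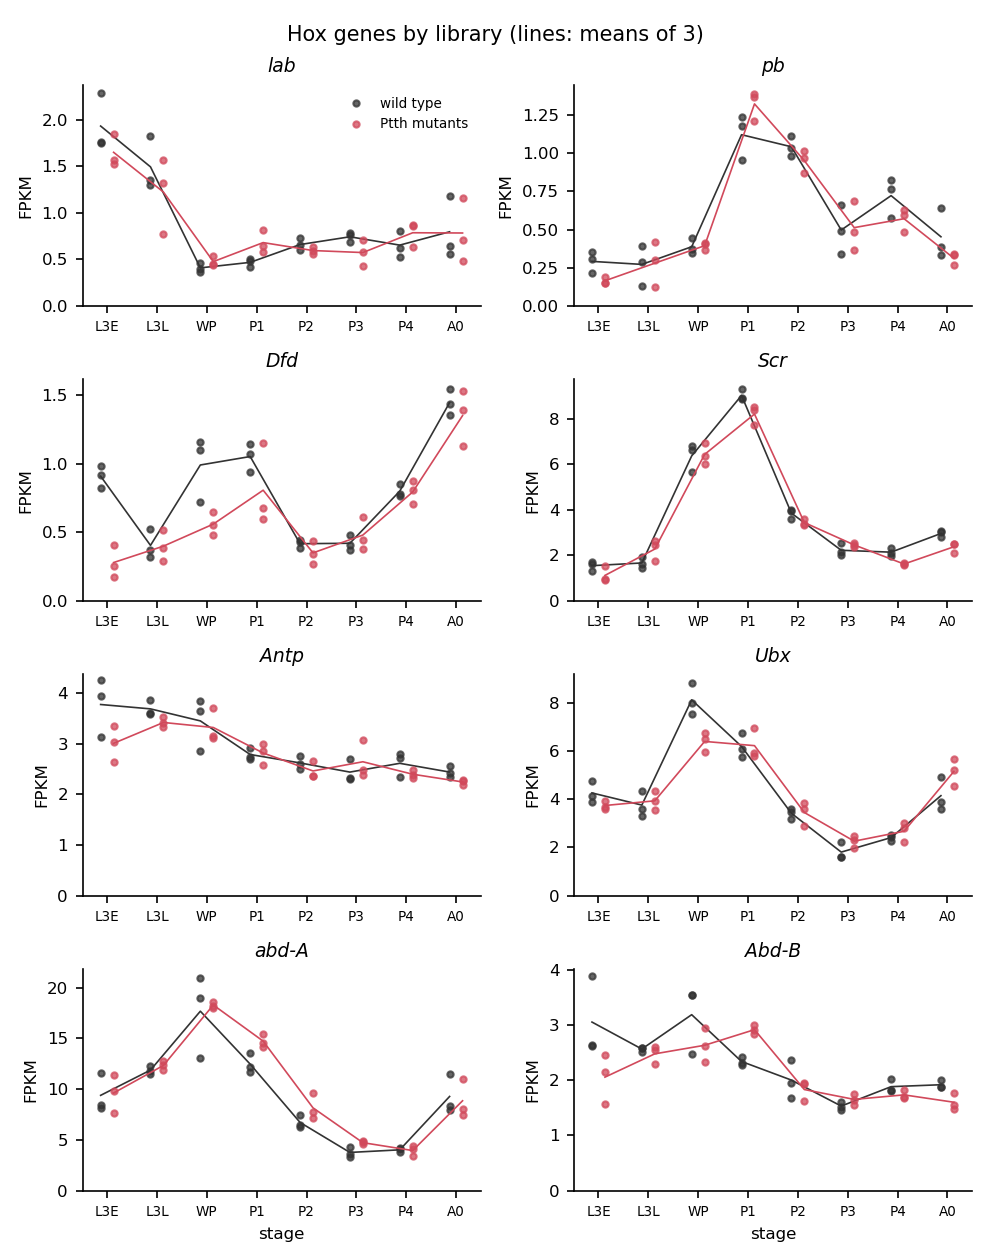
FPKM of the 8 Hox genes in each library by stage, wild type in black and Ptth mutants in red, with lines through the means of 3 libraries. Scr was highest at P1 and Ubx and abd-A at WP in both genotypes.

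To ask whether loss of *Ptth* changed these genes, mutants were compared with wild type at each stage on log2(FPKM + 1) with limma, and a gene was called when its adjusted p was under 0.05 and its change above 2-fold. None of the 41 tested homeobox genes was called at any of the 8 stages, beside 17.2% of all tested genes at L3E, 10.8% at L3L, 1.56% at WP, 2.38% at P1, 1.17% at P2, 3.12% at P3, 1.03% at P4 and 0.448% at A0. An unadjusted p under 0.05 was reached by 9, 12, 4, 16, 11, 13, 4 and 15 members at these stages in turn. No share of all tested genes was counted by this rule, so these counts are not set against a background. The difference between genotypes had a 95% interval inside 2-fold in either direction for 39, 40, 41, 41, 41, 40, 41 and 41 of the 41 genes, and for 67.6% to 92.8% of all tested genes. The pseudocount of 1 compresses changes of such low genes: with limma-voom on read counts recovered from the FPKM values, the interval lay inside 2-fold for 23 genes at L3E, 34 at L3L and 30 to 38 at later stages. By that test 3 genes were called at L3E (*Dll*, *CG11294* and *CG34367*, all higher in mutants), *CG34367* at L3L, also higher, and *en* at A0, which was lower, beside 26.3%, 16.8% and 0.594% of all genes. It called no member at WP, P1, P2, P3 or P4, beside 2.96%, 5.92%, 2.48%, 5.52% and 1.59% of all genes. At L3E *CG34367* rested on 3 to 6 wild-type and 11 to 22 mutant reads, and *CG11294* on 13 to 15 and 23 to 61. After quantile normalization (limma) neither passed, with adjusted p of 0.20 for *CG34367* and 0.10 for *CG11294* at L3E. For *CG34367* at L3L it was 0.10. Members named from here on for their change were chosen after their values were seen, apart from the Hox genes and the highest genes of each stage.

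**Figure D4:**
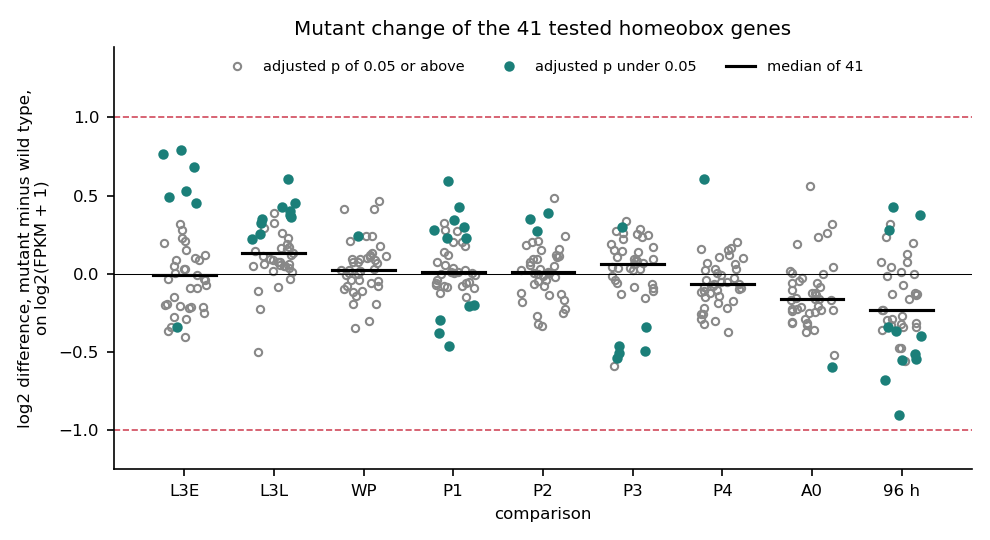
Log2 difference between Ptth mutants and wild type on log2(FPKM + 1) for each of the 41 tested homeobox genes (points) at the 8 stages and at 96 h after egg laying. Filled points had an adjusted p under 0.05 and black bars are medians, and none passed the 2-fold lines (dashed) with the largest at -0.90.

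Without the fold threshold, 7 members differed at L3E, 10 at L3L, 1 at WP, 12 at P1, 3 at P2, 6 at P3, 1 at P4 and 1 at A0. All tested genes differed in 41.9%, 44.4%, 8.26%, 36.7%, 9.43%, 26.4%, 2.86% and 0.79% of cases by the same rule (adjusted p under 0.05, limma). At L3E, L3L and P1, where many genes differed, the members' shares were 17.1%, 24.4% and 29.3%. The single results at WP, P4 and A0 and the 3 at P2 were lost when any 1 of the 6 libraries was left out.

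In early larvae *Dll*, *cad* and *en* were higher in mutants. *Dll* was 2.21, 3.01 and 2.65 FPKM in mutants and 0.932, 1.46 and 1.02 in wild type, with no overlap (log2 difference 0.76, SE 0.14, adjusted p = 0.0080). *cad* was 17.6, 19.8 and 18.2 FPKM against 9.75, 12.2 and 11.7 (log2 0.68, SE 0.11, adjusted p = 0.0048), and every mutant pool lay above every wild-type pool. *en*, which defines posterior compartments, was 1.92, 2.45 and 2.27 FPKM against 1.22, 1.33 and 1.28, also without overlap (log2 0.49, adjusted p = 0.0081), although under quantile normalization the adjusted p was 0.20. *HGTX*, the Nkx6 gene of motor neurons, was the 1 member that was lower, at 0.608, 0.555 and 0.554 FPKM against 1.13, 0.854 and 0.995 (log2 -0.34, adjusted p = 0.010). The 7 members comprised 6 higher and 1 lower, beside 23.7% and 18.2% of all genes, but 2 higher and 6 lower after quantile normalization, under which *Dll*, *cad* and *HGTX* kept an adjusted p under 0.05. As given above, the L3E pools of the genotypes also differed in fat body markers, in roX transcripts and in age.

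At L3L all 10 members that differed were higher in mutants, beside 24.4% of all genes higher and 20% lower, and 5 of 41 lay below 0, with a median log2 difference of 0.13 beside 0.02 for all genes. This direction turned with the scaling: quantile normalization gave a median of -0.13 and, at adjusted p alone, 1 higher and 10 lower. *cad* kept its direction and adjusted p under that scaling. Its pools were 17.8, 16.9 and 16.7 FPKM in mutants and 13.1, 13.6 and 13.9 in wild type (log2 0.32, SE 0.04, adjusted p = 0.0035). *en* was 4.65, 4.71 and 4.64 FPKM in mutants and 2.94, 3.07 and 3.41 in wild type (log2 0.46, adjusted p = 0.0042, and 0.098 after quantile normalization). Both genes separated the genotypes in every library.

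The change itself differed between L3E and L3L for 8 of 41 members (interaction term in 1 limma fit of all libraries, adjusted p under 0.05), beside 40.4% of all tested genes. Without replicate 1, 2 or 3 of every group, 1, 3 and 7 members passed. The largest of the 8 differences was that of the Hox gene *Scr*, which stood at 0.893, 0.939 and 1.5 FPKM in mutant L3E pools against 1.70, 1.59 and 1.33, and at 2.60, 1.74 and 2.46 in L3L pools against 1.46, 1.62 and 1.90. The difference of differences was 0.57 on the log2 scale (SE 0.14, adjusted p = 0.00083), while neither stage alone passed (adjusted p = 0.16 and 0.12), and the genotypes overlapped at both. Of the untested Hox genes, *Dfd* was 0.257, 0.174 and 0.406 FPKM in mutants and 0.918, 0.825 and 0.988 in wild type at L3E. These values rest on 6 to 16 reads against 31 to 37, and limma-voom without a filter on low values gave a log2 difference of -1.71 (adjusted p = 0.0067). At L3L its pools overlapped.

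Because mutant L3E and wild-type L3L larvae were both collected at 96 h after egg laying, they could be compared at equal age. No member was called there, beside 3.81% of all tested genes. An unadjusted p under 0.05 was reached by 19 members, again without a counted share of all genes. At adjusted p alone 11 members differed, beside 21.8% of all genes. Of these, 8 were lower and 3 higher (10 lower and 2 higher with limma-voom), beside 7.53% of all genes lower and 14.3% higher. Of the 41 genes, 30 lay below 0, beside 44.3% of all tested genes, and the median log2 difference was -0.23 beside 0.03. Leaving out 1 library at a time kept the median between -0.26 and -0.18, and quantile normalization gave -0.24. All 9 disc markers (median log2 -0.42) and all 8 neuronal markers (median log2 -0.24) also lay below 0 in this comparison. Other markers did not follow: 1 of 6 muscle (median log2 0.27), 3 of 8 photoreceptor (0.03) and 3 of 6 larval fat body markers (-0.08) lay below 0. The part of these markers was not tested.

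The member with the lowest log2 difference at equal age was *zfh2*, known from proximal appendages. It was 0.692, 1.11 and 1.40 FPKM in mutants and 2.79, 2.89 and 2.81 in wild type (log2 -0.90, SE 0.14, adjusted p = 0.0098). It passed 2-fold when the third mutant L3E library was left out (log2 -1.02) and with limma-voom (log2 -1.46), and it overlaps *Thd1* on the opposite strand. *B-H1* was the other member called by limma-voom (log2 -1.57, adjusted p = 0.039, and 0.069 without the filter on low values), beside 5.98% of all genes. *Dll* was 2.21, 3.01 and 2.65 FPKM against 4.51, 5.16 and 4.69 (log2 -0.68, adjusted p = 0.012), and *E5* 2.06, 2.25 and 2.13 against 3.73, 3.53 and 3.53 (log2 -0.55, adjusted p = 0.0060). The groups of these genes did not overlap. The neuronal gene *unc-4* read 0.611, 0.637 and 0.696 FPKM against 1.17, 1.08 and 1.27 (log2 -0.40, adjusted p = 0.0062). The 3 higher members were *al*, *Six4* and *cad*. The distal leg gene *al* was 7.84, 9.34 and 8.78 FPKM against 6.53, 6.11 and 6.64 (log2 0.38, adjusted p = 0.034), without overlap, although only 1 of the 6 fits that left out a library kept it. *cad* was higher, with 17.6, 19.8 and 18.2 FPKM against 13.1, 13.6 and 13.9 (log2 0.43, adjusted p = 0.0094). From the same 3 mutant pools, *Dll* was lower than in wild type of the same age, a result kept in 4 of the 6 fits that left out a library, and higher than in wild type of the same stage, while *cad* was higher in both. For *en* the difference at equal age (log2 -0.37, adjusted p = 0.0497) was kept in 0 of those 6 fits, and its adjusted p was 0.065 with a pseudocount of 0.1 and 0.085 after quantile normalization. These 2 comparisons share their mutant libraries.

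In prepupae only *CG32105* differed at adjusted p alone (0.960, 1.02 and 1.02 FPKM in mutants against 0.726, 0.687 and 0.663, log2 0.24, adjusted p = 0.025). The Hox gene *Ubx* was 5.94, 6.51 and 6.74 FPKM against 7.54, 8.82 and 8.0, without overlap but at an adjusted p of 0.086 (log2 -0.30). *abd-A*, at 18.2, 18.1 and 18.6 FPKM, lay inside the wild-type spread.

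At P1, the most frequent peak stage, 7 were higher and 5 lower in mutants at adjusted p alone, beside 20.5% and 16.2% of all genes, or 2 higher and 9 lower after quantile normalization, and leaving out 1 library left 3 to 10, the fewest without the second mutant pool. *en* was 6.48, 5.59 and 6.12 FPKM in mutants against 8.72, 8.74 and 8.70 in wild type (log2 -0.46, SE 0.06, adjusted p = 0.0061). Its neighbour and paralog *inv* read 3.93, 3.6 and 3.88 FPKM against 4.40, 4.46 and 4.76 (log2 -0.20, adjusted p = 0.046), a difference lost without any 1 library. *scro*, an NK-class gene of the brain, was 5.01, 5.10 and 5.05 FPKM against 7.19, 7.19 and 6.28 (log2 -0.38, adjusted p = 0.012). In all 3 genes every mutant pool lay below every wild-type pool. Since wild-type P1 pools placed these genes at P1, their lower mutant values there are partly fixed by that choice. Of the 17 members of that group, 13 lay below 0 at P1 (median log2 -0.09), beside a median of -0.10 for the 1552 tested genes with that peak.

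*unpg*, an NK-type gene expressed in subsets of neurons, was higher at P1, at 3.36, 3.12 and 3.32 FPKM in mutants against 1.69, 1.86 and 1.95 (log2 0.59, SE 0.06, adjusted p = 0.0027). At P2 and P3 its genotypes overlapped, and in adults it was 2.83, 1.71 and 3.04 FPKM against 4.30, 2.95 and 3.36. The mesodermal repressor *zfh1* had 10.1, 10.1 and 9.37 FPKM in mutant P1 pools against 7.97, 6.49 and 6.84 (log2 0.42, adjusted p = 0.016). It stayed above wild type in every library at P2 (8.62, 8.41 and 9.09 against 6.38, 6.34 and 6.52, log2 0.39, adjusted p = 0.022) and P3 (7.98, 7.87 and 7.70 against 6.93, 6.07 and 5.67, log2 0.30, adjusted p = 0.044), although the P2 and P3 results were lost without any 1 library. Among the Hox genes, *abd-A* (14.2, 15.5 and 14.6 FPKM against 13.5, 11.7 and 12.1) and *Abd-B* (2.83, 3.00 and 2.92 against 2.42, 2.28 and 2.31) were higher by log2 0.23 each (adjusted p = 0.046 and 0.020), and after quantile normalization neither passed (adjusted p = 0.25 for both). *Scr*, *Ubx* and *Antp* did not pass at P1, with 95% intervals of the log2 difference of -0.26 to 0.01, -0.22 to 0.23 and -0.15 to 0.17.

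At P3, 5 members were lower and 1 higher in mutants at adjusted p alone, beside 16.6% and 9.79% of all genes, against 5 lower and 5 higher after quantile normalization. The lower members were *Optix* (5.05, 5.75 and 6.75 FPKM against 9.63, 8.31 and 8.79, log2 -0.54, adjusted p = 0.028), *HGTX* (1.47, 1.56 and 2.24 against 3.01, 2.89 and 2.77, log2 -0.51), *CG34367* (1.48, 2.01 and 2.40 against 3.12, 3.17 and 3.14, log2 -0.49), *cad* (5.43, 5.14 and 5.35 against 8.08, 7.40 and 7.67, log2 -0.47) and *inv*. In each of the first 4 the genotypes did not overlap. The count depended on single libraries: none remained without the third wild-type pool, the first mutant pool or the second mutant pool, and 7 were found without the third mutant pool. At this stage the roX transcripts also separated the genotypes, as they did in the other direction at L3E and L3L.

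*Optix*, *HGTX*, *CG34367* and *CG11294* are also the 4 tested members whose wild-type mean was highest at P3, and all 4 had their highest mutant mean at P1. Since the wild-type P3 pools chose them, their drop at P3 is partly fixed by that choice and is given as a description: the median log2 difference of the 4 was -0.52, beside -0.64 for the 2955 tested genes with the same wild-type peak.

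After P3 little separated the genotypes. *Six4* was higher in mutants at P4, at 4.60, 4.05 and 4.02 FPKM against 2.33, 2.78 and 2.18 (log2 0.61, adjusted p = 0.041), and its adult pools, 9.40, 7.61 and 9.67 against 5.89, 6.37 and 4.86, also did not overlap but did not pass (log2 0.56, adjusted p = 0.14). In adults *en* was 0.817, 0.716 and 0.675 FPKM in mutants against 1.71, 1.52 and 1.66 in wild type (log2 -0.60, SE 0.06, adjusted p = 0.026, and -1.13 with limma-voom). Of the 41 tested members, 33 lay below 0 at A0 beside 48.4% of all tested genes, with a median log2 difference of -0.16 beside 0.00, between -0.19 and -0.13 when 1 library was left out. In the same adults all 6 larval fat body markers (median log2 -0.88), 5 of 6 muscle markers (median log2 -0.06), 7 of 8 photoreceptor markers (median log2 -0.21), 6 of 8 neuronal markers and 6 of 9 disc markers also lay below 0, and their part was not tested. The roX sum reached 1.67 FPKM in a mutant and at most 0.320 in wild-type adult pools.

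Opposite directions at 2 stages, with adjusted p under 0.05 at each and in the interaction term (limma), were found for 6 of the 41 members (14.6%), beside 28.7% of all tested genes. Because these 6 were chosen by their changes at the stages compared, the sizes that follow are a description. The change of *en* was lower at P1 than at L3E by 0.96 on the log2 scale and lower at A0 than at L3E by 1.09. The mean of *en* in mutants was 2.21 FPKM at L3E and 6.06 at P1, and in wild type 1.27 and 8.72. The change of *Dll* was lower at P1, where mutants read 10.2, 10.2 and 10.5 FPKM against 12.4, 11.8 and 11.9, than at L3E by 0.97. For *cad* the change at P3 lay 1.15 below that at L3E, and for *Optix* the change at P3 lay 0.82 below that at P1. In mutants *Optix* had 7.12, 7.82 and 8.31 FPKM at P1 against 6.17, 5.72 and 6.73 in wild type.

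**Figure D5:**
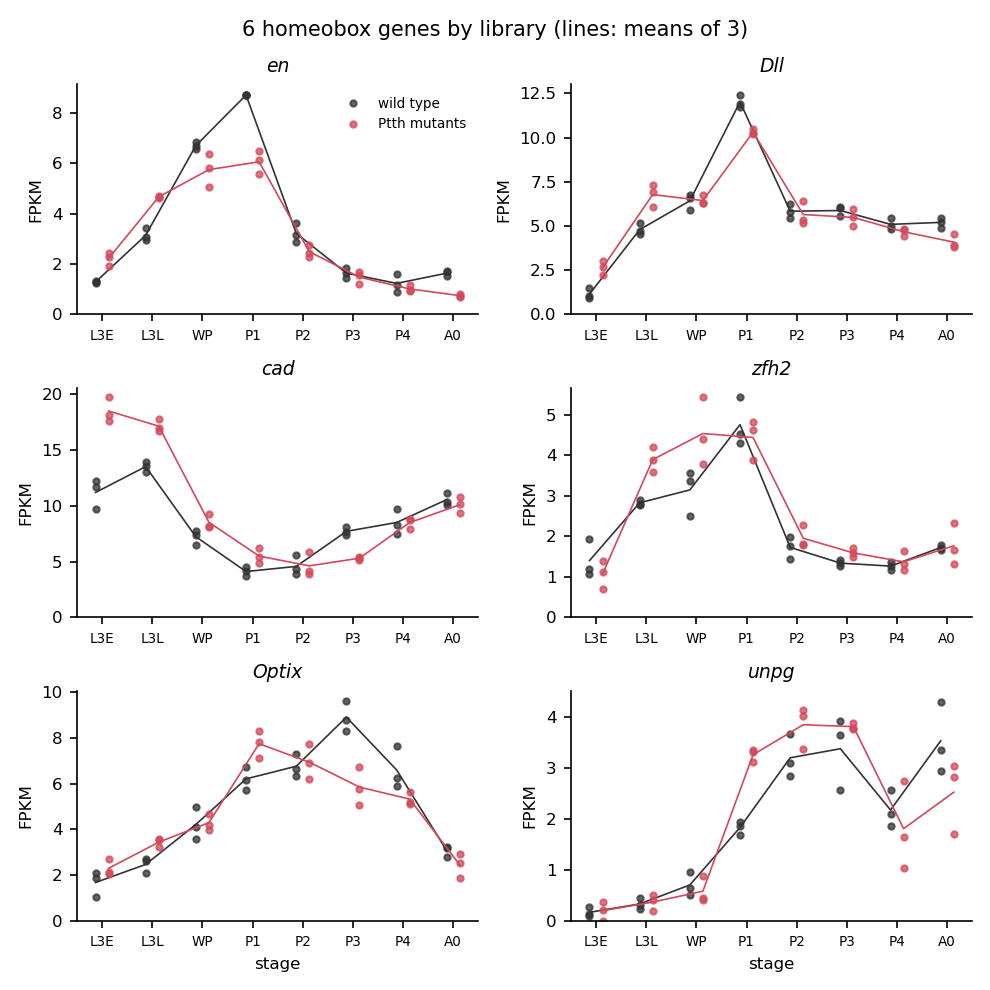
FPKM of 6 homeobox genes in each library by stage, wild type in black and Ptth mutants in red, with lines through the means of 3 libraries. For en the mutant pools lay above wild type at L3E and L3L and below it at P1 and A0, and for cad they lay above it at L3E and L3L and below it at P3.

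The stage of highest expression was the same in both genotypes for 25 of 41 tested members (61.0%), beside 59.1% of all tested genes. Of the 17 members that peaked at P1 in wild type, 15 also did so in mutants, the exceptions being *scro* and *zfh2* (WP). In mutants 22 tested members peaked at P1, and the share of all tested genes there was 18.3%, beside 12.6% in wild type. Tested in the mutant libraries alone, 38 of 41 members were higher at their wild-type peak stage than the mean of the other 7 stages. This one-sided limma test (adjusted p under 0.05) did not require the highest mutant mean to lie there. Of all tested genes, 91.9% passed it. With the 2-fold threshold 14 members (34.1%) passed, beside 47.3% of all tested genes, whereas with a pseudocount of 0.1 it was 24 members (58.5%) beside 55.2%. The largest was *Six4* at A0, with a log2 difference of 2.30 (adjusted p = 8.2e-15), and at P1 *C15* and *E5* followed with 1.54 each, *ems* with 1.41 and *Scr* with 1.38.

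By structural class, the tested members and their relatives comprised 5 Hox, 9 other ANTP-class, 8 NK-type, 12 paired-like, 6 LIM, 4 POU, 3 sine oculis-type, 7 TALE and 6 Cut or zinc-finger genes, from lists that also hold genes the table files under other families. Apart from the TALE class, none of these classes had a gene called in any comparison. At A0 all 9 other ANTP-class genes (median log2 -0.16) and 7 of 8 NK-type genes (-0.15) lay below 0, beside 48.4% of all genes. Medians were -0.24 for paired-like, -0.20 for LIM, -0.16 for sine oculis-type, -0.09 for TALE and -0.08 for Hox genes. They were -0.01 for Cut and zinc-finger genes and 0.03 for POU genes, beside 0.00 for all tested genes. At 96 h the medians were -0.45 for TALE, -0.42 for Cut and zinc-finger, -0.37 for other ANTP-class, -0.31 for NK-type, -0.28 for POU, -0.23 for Hox, -0.22 for LIM, -0.17 for paired-like and -0.07 for sine oculis-type genes, and no test compared the classes. The Polycomb and trithorax groups, which keep Hox genes silent or active, had 19 and 15 tested genes, none of them called in any comparison, beside the shares of all genes given above. At 96 h 17 of the 19 Polycomb genes (median log2 -0.37) and 14 of the 15 trithorax genes (median log2 -0.36) lay below 0. Among all tested genes 44.3% did, with a median of 0.03.

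The closest members to *Ptth* lie on chromosome 2L. *Pph13* (577486 to 579549) starts 589 bases from it and *Gsc* (583544 to 594685), a head and foregut gene, 6647 bases from it, and *al* lies 188271 bases away. *Pph13* peaked at P4 in both genotypes, at 2.28, 1.87 and 1.84 FPKM in mutants against 2.23, 2.04 and 1.86, with overlapping pools. *Gsc* stayed at or under 0.383 FPKM in every library, and *al*, at 10.1, 9.78 and 10.3 FPKM in mutant P1 pools against 9.74, 10.6 and 11.7, overlapped as well.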

How the data were processed

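RNA from whole-animal pools of 8 stages and 2 genotypes was sequenced after poly(A) selection, with 3 biological replicates per group. The deposited values are FPKM for 17558 genes. The submitters' processing notes name HISAT2 2.0.5, featureCounts 1.5.0-p3 and BDGP6, while the study's methods name STAR and htseq-count, and the sources do not settle which made the table. Multiplying a deposited FPKM value by the gene length and by a single library size returned whole reads (100.0% within 0.001 read), so the authors' FPKM are scaled across libraries by size factors and the recovered reads were used for limma-voom only. Genes came from the transcription factor column of the table, and 77 of 79 members were found in the current annotation, 75 at the same coordinates.

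Mutants and wild type were compared with limma 3.58.1 (R 4.3.3, moderated variances with an intensity trend) on log2(FPKM + 1), separately for the 6 libraries of each stage. P-values were two-sided and adjusted by Benjamini-Hochberg over 12282 genes that reached 3 FPKM in 1 library or more. Genes were called at an adjusted p under 0.05 and above 2-fold. The log2 differences understate the change of low genes. Differences between stages were interaction terms in a fit of all 48 libraries. Expression at the wild-type peak stage was tested one-sided against the mean of the other 7 stages in the 24 mutant libraries. The steps that gave 2-fold calls were tested on simulated data with known changes above 2-fold. Results at adjusted p alone, the interaction terms and the peak-stage test were not simulated. Alternatives were a pseudocount of 0.1, no filter, quantile normalization, limma-voom, a 1.5-fold threshold, the replicate number as a block and leaving out each library. Adjusted p alone, limma-voom without the filter, own-total scaling and the alternatives for the number of P1 peaks were added after seeing the data. The homeobox genes and all gene lists were chosen with earlier results of these data known.

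Genes named by rule were all Hox genes, the 3 members with the highest wild-type mean in each peak group, the 3 with the widest wild-type range, up to 4 called genes per direction and comparison, and genes called in the same direction in at least 2 stages, with none in the last 2 sets. Plots and tables were made with Python 3.11.15, pandas 2.3.3, numpy 2.4.6 and matplotlib 3.10.9. No sequences were used here.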

Additional observations from a re-analysis of the deposited data

Results flagged for a closer look

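A difference of the mutant change between stages, tested by an interaction term, marked the following homeobox genes, each beside 3 libraries per group. Between L3E and L3L the change (mutant minus wild type, log2 scale) moved up by 0.57 for *Scr* (adjusted p = 0.00083), by 0.57 for *zfh2* (adjusted p = 0.014), by 0.53 for *HGTX*, by 0.48 for *tup* and *Awh*, by 0.43 for *NK7.1* and by 0.37 for *Abd-B*, and it was -0.34 for *Dll* (adjusted p = 0.026).

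Opposite directions at 2 stages, each at adjusted p under 0.05, were found for 6 of 41 members (14.6%), beside 28.7% of all tested genes. These genes were chosen by the changes that the differences compare, so the values are a description. For *en* the difference was -0.96 from L3E to P1, -0.92 from L3L to P1, -1.09 from L3E to A0 and -1.06 from L3L to A0. For *Dll* it was -0.97 from L3E to P1 and -0.63 from L3L to P1. For *cad* it was -1.15 from L3E to P3, -0.79 from L3L to P3 and -0.81 from P1 to P3. For *Optix* it was -0.90 from L3L to P3 and -0.82 from P1 to P3, and for *CG34367* -1.03 from L3E to P3 and -1.10 from L3L to P3. *C15* went from lower at P1 (6.36, 6.06 and 6.06 FPKM against 7.34, 8.34 and 7.73) to higher at P2 (2.75, 2.76 and 2.79 against 1.73, 2.16 and 2.02), a difference of 0.64. Of the results at P2, P3 and A0 that enter these pairs, each lost its own adjusted p in 3 or more of the 6 fits that left out 1 library. Among those at P1 and L3L, *cad* and *Optix* at P1 were each kept in 1 of 6 fits (adjusted p = 0.077 and 0.074 after quantile normalization, limma), *Optix* at L3L in 3, and *Dll* and *C15* at P1 in 4, so that both ends of the P1 to P3 pairs depended on single libraries.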

How the results depend on the processing

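The absence of 2-fold calls was the same with no filter, quantile normalization and the replicate block, in which 0 members were called in every comparison. A pseudocount of 0.1 called 3 members at L3E and 1 each at L3L, P2, A0 and 96 h, beside 25.1%, 15.5%, 1.84%, 0.513% and 5.41% of all genes. Limma-voom called 3 at L3E, 1 at L3L, 1 at A0 and 2 at 96 h, and without the filter 7, 1, 1 and 3 (beside 21.2%, 13.9%, 0.373% and 4.89%). A 1.5-fold threshold gave 3 at L3E, 1 each at L3L, P1, P4 and A0, and 2 at 96 h, beside 29.6%, 21%, 10.8%, 2.08%, 0.676% and 10.8%. With no fold threshold there were 7 at L3E, 10 at L3L, 1 at WP, 12 at P1, 3 at P2, 6 at P3, 1 at P4, 1 at A0 and 11 at 96 h. Leaving out 1 library gave 0 calls at every stage and 0 to 1 at 96 h.

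At adjusted p alone, leaving out 1 library gave 5 to 7 members at L3E, 7 to 10 at L3L, 3 to 10 at P1, 0 to 7 at P3, 4 to 13 at 96 h and 0 at WP, P2, P4 and A0. Quantile normalization gave 0 at WP and A0 and 10 at P3, no filter 1 at P2, 3 at P3 and 0 at P4, and limma-voom 2 at WP. The replicate block gave 6 at L3L, 4 at P1, 1 at P3, 6 at 96 h and 0 at WP, P2, P4 and A0. Replicate numbers did not pair the samples: correlations of same-numbered deviations ran from -0.43 to 0.47, and no stage had all 3 above 0.1. Of the 52 results at adjusted p alone, 11 held under a pseudocount of 0.1, quantile normalization, limma-voom, the block and every left-out library: *cad*, *Dll* and *HGTX* at L3E, *cad* at L3L, *en*, *scro* and *unpg* at P1, and *cad*, *E5*, *zfh2* and *unc-4* at 96 h. Quantile normalization reversed *E5* (-0.031) and *Optix* (-0.013) at L3L, and the cause was not tested.

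The number of members with a changed response between L3E and L3L was 7 with a pseudocount of 0.1, 11 with no filter and 6 with quantile normalization, and 1 to 7 without 1 replicate number. In mutants, members above the mean of the other stages by 2-fold at their wild-type peak stage numbered 24 with a pseudocount of 0.1 (58.5%, beside 55.2% of all genes). They numbered 16 with no filter or quantile normalization and 14 to 15 without 1 replicate. The same peak stage was shared by 51 of 79 with no filter, 31 after quantile normalization, 30 by own totals and 22 to 28 without 1 replicate, and P1 peaks numbered 33 of 79 with no filter and 18 to 20 without 1 replicate. By limma-voom, the 95% interval at L3E lay inside 2-fold for 23 of 41 members, beside 49.6% of all genes.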

Other observations

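Other homeodomain genes are filed under other families in the table. Of the 7 TALE genes, which include the Hox cofactors *exd* and *hth*, *achi* fell in mutants in 7 of 9 comparisons: WP, P1, P2, P3, P4, A0 and 96 h. At P3 it was 1.80, 1.95 and 1.86 FPKM in mutants against 7.20, 7.70 and 6.37 in wild type (log2 -1.49, SE 0.08, adjusted p = 0.00097, limma), without overlap. At L3E (log2 -0.98) and L3L (log2 -0.87) its difference passed the adjusted p but not 2-fold. Its adjacent and near-identical paralog *vis* rose at L3E (log2 1.17, adjusted p = 0.00049) and read 4.35, 6.70 and 3.30 FPKM in mutant prepupae against 2.74, 1.66 and 2.70. How reads were shared between these copies is not given in the sources used here, and both values are uncertain. *exd* and *hth* were not called in any comparison.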
